A study of Mus musculus with 44 samples.

Results

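Of the 135391 regions marked by H3K27me3 in cultured mouse haematopoietic progenitors, 5390 lay on chromosomes 1 to 19, were at least 10000 bp wide (end minus start) and shared no base with a listed RING1B or PCGF1 peak. They were 67.4% (exact 95% binomial interval 66.4 to 68.5) of the 7992 autosomal regions of that width. Another 2541 wide regions held RING1B and served as the comparison, and 61 held PCGF1 without RING1B. The regions were chosen by their width and by overlap in these lists, so both are described without a test. Among autosomal H3K27me3 regions of any width, 93.9% held neither protein and 6.6% were wide, and 95.8% of those under 10000 bp held neither.

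The cells were IdHP cells, progenitors of strain B6CBAF1/J from bone marrow, cultured with IL7, SCF and Flt3L over TSt4 stroma cells and taken at passages 15 to 18. Chromatin immunoprecipitation gave 3 peak lists, each for 2 libraries: H3K27me3 in Pcgf1 fl/fl cells, RING1B in Pcgf1 fl/fl cells with an in-house antibody, and FLAG in Pcgf1 -/- cells that carried FLAG-PCGF1. PCGF1 was thus mapped in a different cell population. The lists hold no value per library, so no value below has a replicate error, read depth is unknown, and no difference was tested. A site bound too weakly to be listed counts here as unbound. Intervals of shares cover counting error only, and neighbouring regions are not independent.

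H3K27me3 is written by Polycomb repressive complex 2, which can also bind its own mark and extend it along a chromosome. RING1B is the catalytic subunit of Polycomb repressive complex 1, which ubiquitinates histone H2A, and canonical forms of that complex dock on H3K27me3 through CBX proteins. PCGF1 defines a variant form that reaches unmethylated CpG islands through KDM2B. Genomes carry both compact, strongly marked Polycomb targets and long stretches of lower H3K27me3 over silent chromatin.

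Regions with neither protein were the narrower part of the wide class. Their median width was 14450 bp (interquartile range 11700 to 20130), against 19390 bp (13670 to 29920) for regions that held RING1B. Together they covered 96.0 Mb, which was 58.4% of all bases in wide regions and 21.7% of all autosomal H3K27me3 bases. Their share of regions was 79.7% (77.8 to 81.5) at 10 to 12 kb, 69.5% (67.2 to 71.8) at 15 to 20 kb and 27.5% (22.8 to 32.6) above 50 kb. A longer region has more bases on which a peak can fall. The number of RING1B peaks per Mb of wide region, which takes length into account, was 27.3 at 10 to 12 kb, 34.0 at 15 to 20 kb and 40.3 above 50 kb. So the density of RING1B peaks went up 1.48-fold between the ends of the width range, and the share of regions without either protein went down from 1538 of 1930 to 93 of 338.

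**Figure D1:**
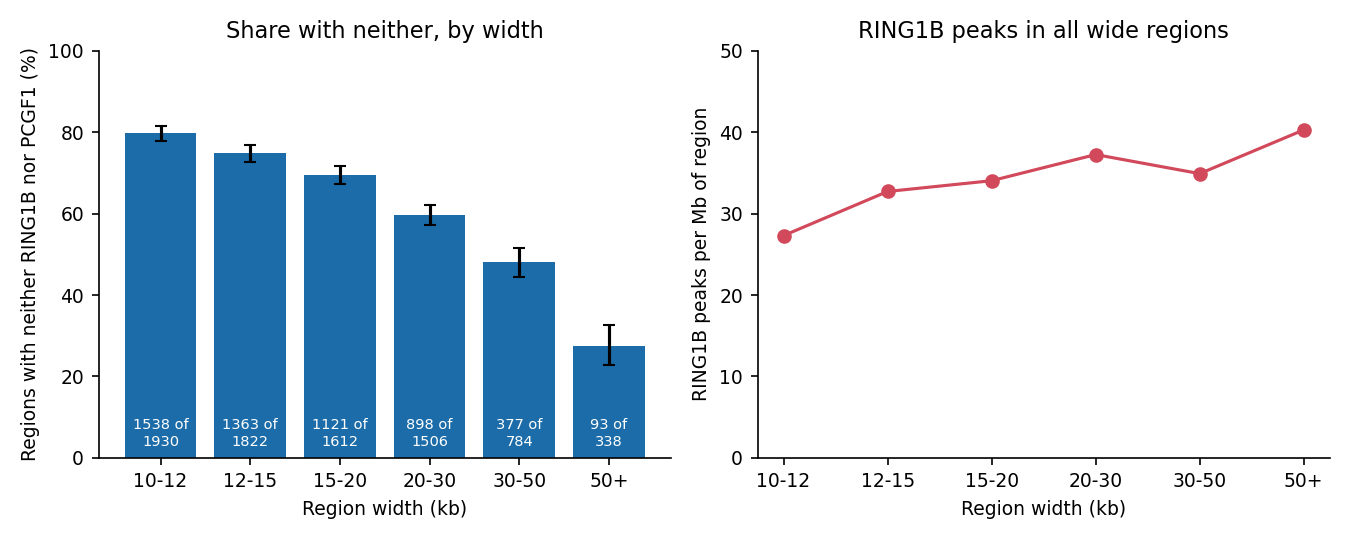
Left, share of autosomal H3K27me3 regions of at least 10 kb that held neither RING1B nor PCGF1, by width in kb, with exact 95% binomial intervals and the counts in the bars. Right, RING1B peaks per Mb in all wide regions of each width class; the share goes from 79.7% to 27.5% while the peak density goes from 27.3 to 40.3 per Mb.

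At the same width, regions with neither protein had lower H3K27me3 signal than regions with RING1B. The authors' height, the highest signal in a region, had a median of 106 (interquartile range 92.6 to 124). For RING1B-holding regions weighted to the same mix of 6 width classes it was 126 (108.0 to 153), a ratio of 0.843. The mean signal, which is total signal divided by width, was 18.2 (15.4 to 21.8) against 21.1 (17.6 to 26.6), a ratio of 0.863. The share of a region's width above the caller's cutoff was 15.8% (12.2 to 20.8) against 20.7% (15.9 to 27.7). The quartiles overlapped: 1243 regions with neither protein (23.1%) were taller than the weighted median of RING1B-holding regions, and 421 (7.81%) were above its upper quartile. Nearly all wide regions of both sets were tall for the list as a whole. Above the autosomal median height of 68.0 were 5347 of 5390 regions with neither protein (99.2%) and 2538 of 2541 with RING1B (99.9%).

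The lower signal was present in every width class. At 10 to 12 kb, median height was 97.1 without either protein and 116 with RING1B. Above 50 kb it was 146 and 177. The ratio of medians lay between 0.819 and 0.850 over the 6 classes for height and between 0.845 and 0.883 for mean signal. In both sets the signal went up with width (Spearman correlation of width and height 0.41 over the 5390 regions and 0.47 over the 2541; regions share the same libraries). Height divided by mean signal was similar in the 2 sets, with a median of 5.77 in regions with neither protein and 5.88 in width-weighted regions with RING1B. The share of width above the cutoff was not, with ratios of medians between 0.726 and 0.819 over the 6 classes.

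**Figure D2:**
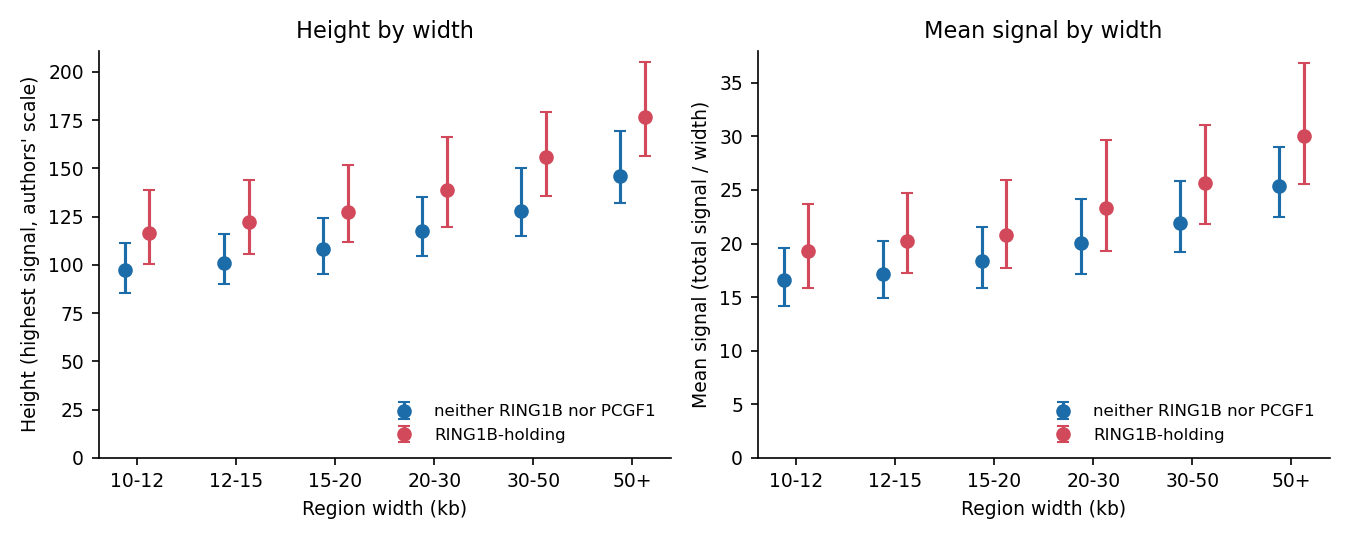
Height (left) and mean signal (right) of wide H3K27me3 regions on the authors' scale, by width in kb. Points are medians and bars are quartiles; in each of the 6 classes the regions with neither protein (blue) have the lower median and the quartiles overlap those of RING1B-holding regions (red).

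How much RING1B a region held went with its height. RING1B-holding regions had a median of 13.4% of their width on RING1B (5.0 to 31.3), and 634 of them had less than 5%. Weighted to the same widths, median height was 119 in the 254 regions with under 2% of their width on RING1B and 118 in the 380 with 2 to 5%. It was 122 in the 431 with 5 to 10%, and 135 in the 801 with 25% or more. The 254 regions were wide (median 28115 bp), with only 15 at 10 to 12 kb and 29 at 12 to 15 kb, so few regions carry much of their weight. Regions with no listed RING1B, at 106, were thus below even the regions with the least RING1B, with a ratio of 0.898. Mean signal had a less even order, with 21.1 in regions under 2%, 19.8 in those with 2 to 5% and 21.7 in those with 25% or more. PCGF1 lay in 7.48% of the RING1B-holding regions under 2% and in 27% of those with 25% or more. Leaving out regions with PCGF1 moved the comparison closer to equality: against the 2071 RING1B-holding regions without PCGF1, the ratio was 0.867 for height and 0.901 for mean signal.

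Signal also varied weakly with the distance to RING1B outside the region. The Spearman correlation of distance and mean signal was -0.115 over the 5390 regions. The nearest RING1B peak was a median of 39.3 kb away (14.4 to 85.6), and 583 regions (10.8%, 10.0 to 11.7) had one within 5 kb. Median height, weighted to the same widths, was 110.0 in those 583 regions, 106 in the 1377 regions at 20 to 50 kb and 103 in the 303 regions at 200 to 500 kb. Mean signal was 19, 18.3 and 16.7 in the same 3 classes. The 59 regions more than 500 kb from RING1B departed from this order in height, with a median of 115, but not in mean signal, with 16.7. They also had less H3K27me3 around them, with a median of 23.7% of the flanking 200 kb on each side covered, where the other distance classes had 38.7 to 43.2%.

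**Figure D3:**
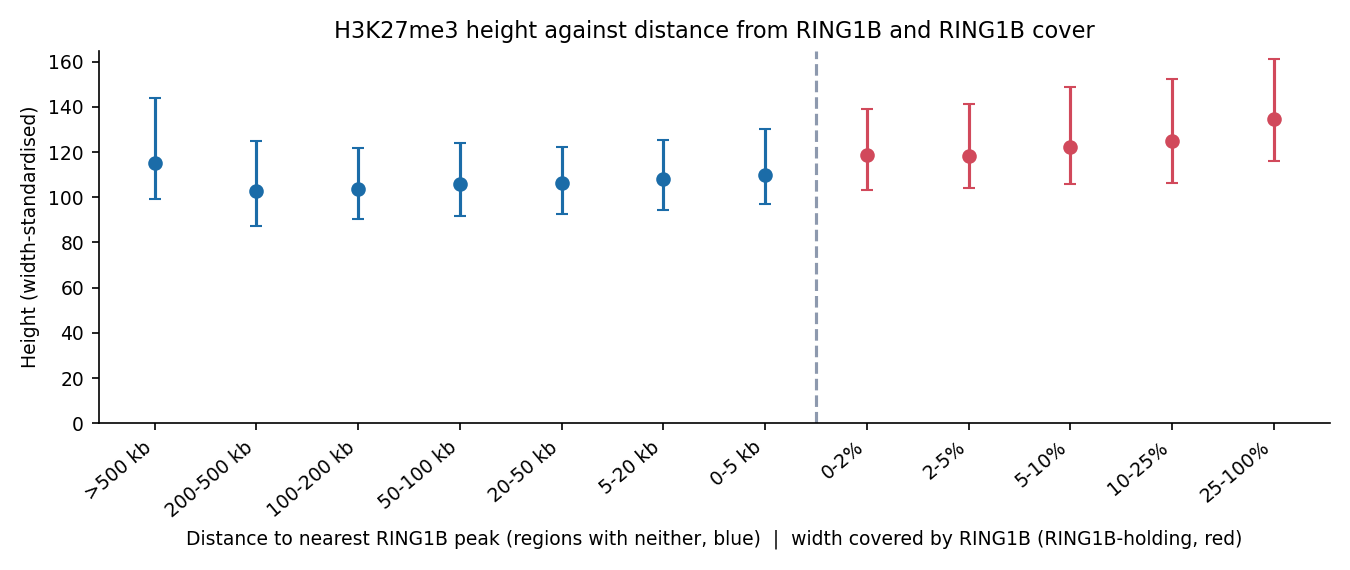
Median height with quartiles, weighted to the widths of the regions with neither protein. Blue points are regions with neither protein by distance to the nearest RING1B peak (from more than 500 kb to under 5 kb), and red points are RING1B-holding regions by the share of their width on RING1B; medians run from 103 at 200 to 500 kb to 135 at 25% cover or more.

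Most of these regions lay more than 50 kb from strong RING1B sites and from PCGF1. Counting only RING1B peaks with a deposited -log10 q of at least 5, the median distance was 257 kb (116 to 528), and 570 regions (10.6%) had such a peak within 50 kb. For PCGF1 the median distance was 256 kb (108 to 619), and 685 regions (12.7%) had a peak within 50 kb. Width-weighted RING1B-holding regions that lacked PCGF1 lay a median of 210 kb from it. The PCGF1 list held only 2569 peaks. The distance from a random place was not computed for PCGF1 or for strong RING1B peaks. These distances alone therefore do not set the regions apart from other places. Among the 5661 RING1B peaks inside wide regions, 555 (9.80%) had a -log10 q of at least 5, so most wide regions counted as RING1B-holding owe that to peaks below this limit. When only peaks of at least 5 were counted, 7451 of 7992 wide regions (93.2%) held neither protein, and their height was 0.766 of that of regions with RING1B.

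The surroundings of the 2 sets differed in opposite directions for the mark and for the protein. Other H3K27me3 regions covered a median of 40.5% (30.1 to 51.3) of the 200 kb on each side of regions with neither protein, against 34.7% (25.4 to 45.4) around width-weighted RING1B-holding regions. This order held in all 6 width classes, by 1.09 to 1.24-fold. RING1B peaks outside the region numbered 12.5 per Mb (7.5 to 22.5) in the same flanks, against 25 (12.5 to 40). Even so, 5028 of the 5390 regions (93.3%) had a RING1B peak within 200 kb, as did 2501 of the 2541 (98.4%) outside the RING1B-holding regions themselves.

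**Figure D4:**
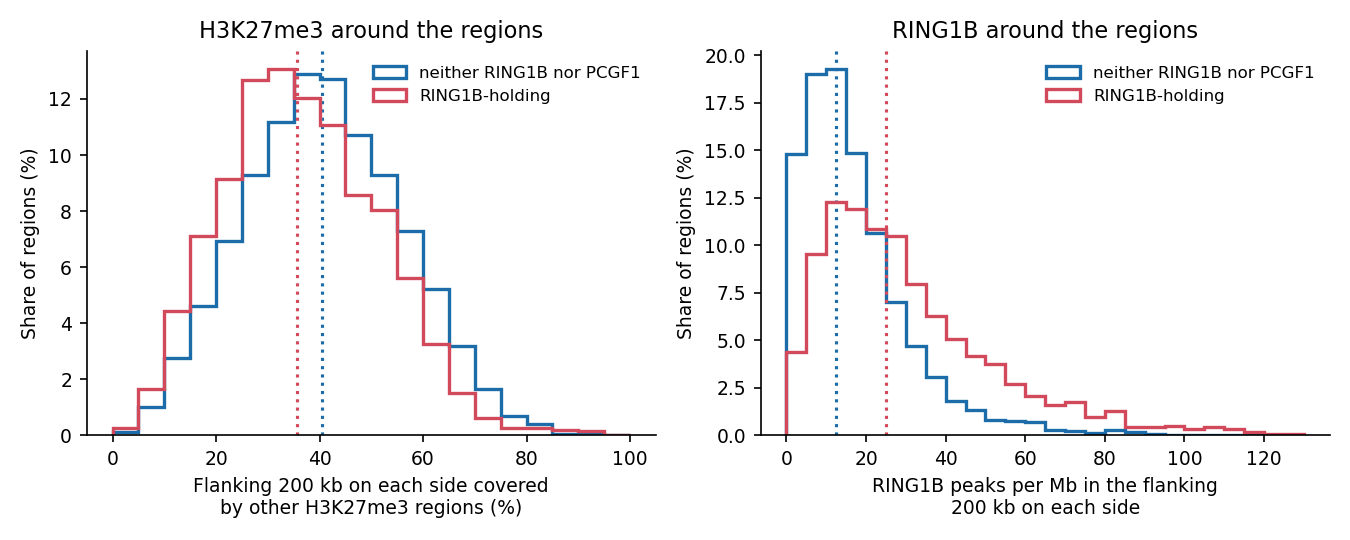
Left, percent of the 200 kb on each side covered by other H3K27me3 regions; right, RING1B peaks per Mb in those flanks. Lines give the share of regions per bin and dotted lines the unweighted medians, 40.5% and 12.5 per Mb for regions with neither protein (blue), 35.6% and 25 per Mb for RING1B-holding regions (red).

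Many of these regions lay within a few kb of another marked region. Autosomal regions of the list lay at least 1510 bp apart, and the nearest other H3K27me3 region was a median of 1890 bp from a region with neither protein (1640 to 2490). The same gap for RING1B-holding regions, weighted to the same widths, was 1910 bp (1650 to 2590), so the 2 sets hardly differed in it. Closing gaps of up to 3 kb joined 4461 of the 5390 (82.8%) to a neighbour. The regions then lay in 4204 stretches with a median width of 29.0 kb, counting regions that joined to nothing as stretches of their own. After this joining 1153 of the regions (21.4%) were in a stretch that held RING1B and 4199 were still in a stretch with neither protein. With gaps of up to 5 kb, 1963 (36.4%) were in a stretch with RING1B and 3362 with neither. The widest joined stretch with neither protein was 252 kb at 3 kb gaps.

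Another wide region with neither protein was within 100 kb of 4330 of the 5390 (80.3%). Among all 7992 wide regions, 87.3% had another wide region within 100 kb, and 61.6% of the 2541 RING1B-holding regions had another RING1B-holding one. These shares are not matched for the number of regions in each set, so 80.3% does not set the regions with neither protein apart. Chains in which each was within 100 kb of the next numbered 2191. Of these, 1060 held a single region, while 295 held 5 or more and together had 2125 regions. The longest chain had 22 regions over 836 kb on chromosome 19, 42271380 to 43107290, where H3K27me3 covered 65.1% of the bases and 2 RING1B peaks lay in between. Heights in that chain ran from 78.8 to 163 with a median of 122. The next longest had 20 regions over 663 kb on chromosome 5, 36139460 to 36802280, with 79.1% of the bases marked and a median height of 101, and 19 regions over 671 kb on chromosome 6, 90288660 to 90959480, with 71.3% marked and a median height of 116.

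Seen from RING1B, the regions lay in a minority of the stretches between neighbouring peaks, many of which are too short to hold one. RING1B peaks divide the autosomes into 24337 peak-free stretches, and 2535 of them (10.4%) held at least 1 region. These were long, with a median of 149 kb (75.9 to 323) against 9.86 kb for the other stretches. A stretch under 10 kb cannot hold a region, so the width limit sets part of the share and of the difference in length. The median H3K27me3 cover was 48.8% in stretches that held a region and 16.4% in the others. Holding a wide marked region sets part of that difference too. In 1363 stretches there was a single region, and 241 stretches with 5 or more held 1627 regions. The most in a single stretch was 18, so regions often share their RING1B-free stretch and are not independent.

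The share of wide regions with neither protein varied moderately over chromosomes. It was lowest on chromosome 19, at 57.6% (52.0 to 63.0) of 330, and highest on chromosome 14, at 75.7% (71.0 to 79.9) of 374. RING1B peaks were densest on chromosome 19, with 184 per 10 Mb against 73.3 on chromosome 14. Chromosomes 8 and 18 had fewer still, 66.4 and 71.9, with shares of 74.7% and 68.8%. Per 10 Mb there were 14.4 regions with neither protein on chromosome 10 and 32.6 on chromosomes 9 and 19. Over the 19 chromosomes this number went up with RING1B peaks per 10 Mb (Spearman correlation 0.61). Median height per chromosome ranged only from 101 to 114. At the same width these regions were lower than RING1B-holding regions on all 19 chromosomes, with ratios of 0.759 to 0.899 for height and 0.767 to 0.943 for mean signal. On chromosome X, which was not part of the set, 393 of 469 wide regions (83.8%, 80.1 to 87.0) held neither protein.

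**Figure D5:**
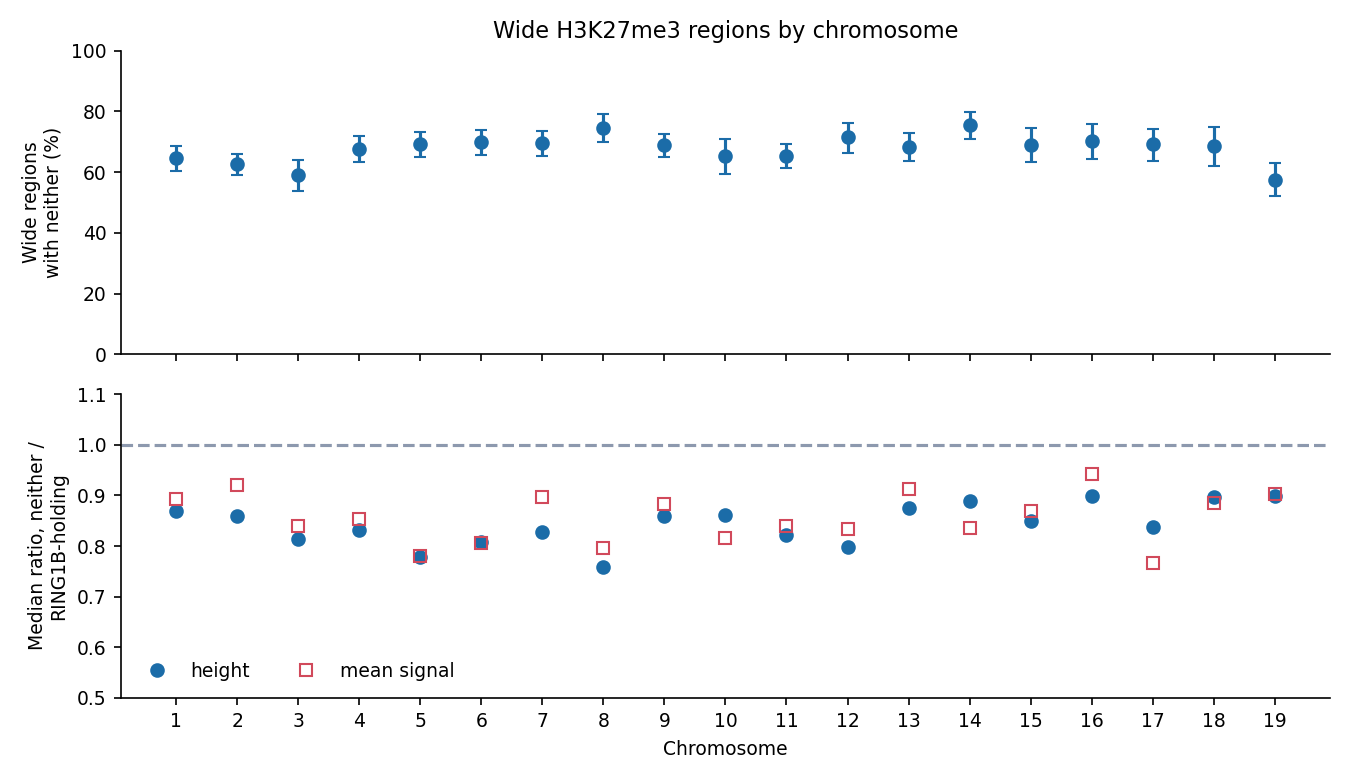
Top, percent of wide H3K27me3 regions with neither RING1B nor PCGF1 on each autosome, with exact 95% binomial intervals. Bottom, ratio of median height (circles) and median mean signal (squares) between these regions and RING1B-holding regions of the same widths; all ratios lie between 0.759 and 0.943.

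Along the chromosomes, regions with neither protein were most frequent at the far end. Mouse chromosomes have their centromere at the start of the coordinates. The first 10% of the listed span held 5.68% of these regions and the last 10% held 14.4%, where RING1B-holding regions had 5.04% and 10.9%. The last part held more than 10% of the regions on 13 of 19 chromosomes, from 3.15% on chromosome 13 to 26.7% on chromosome 16. Its share was above that of RING1B-holding regions on 14 of 19. Median height was 107 in the last 10% and 106 elsewhere.

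The 6 widest regions had heights above the upper quartile of the set, 124, but height went up with width. In the 93 regions with neither protein above 50 kb, median height was 146 (132 to 169). Their median mean signal was 25.4 (22.5 to 29.0). Not all of the 6 widest were above these medians. The widest was at chromosome 11, 94591460 to 94748600 (157 kb), with a height of 223, a mean signal of 34.8 and the nearest RING1B peak 18.0 kb away. Next came chromosome 8, 11317110 to 11442800 (126 kb), with a height of 137 and a mean signal of 20.3. Chromosome 5, 30701120 to 30811560 (110 kb), had a height of 154 and a mean signal of 28.4. On chromosome 2, 28798830 to 28904190 (105 kb) had a height of 160 and a PCGF1 peak 6.0 kb outside it. Chromosome 6 had 2 of the 6 widest, 128042000 to 128144460 with a height of 202 and 91725940 to 91826780 with a height of 148, at 105 and 91.7 kb from RING1B. RING1B-holding regions reached larger widths. Their widest were chromosome 19, 44656030 to 44931190 (275 kb, height 408, 6 RING1B peaks), chromosome 15, 102746200 to 102980960 (235 kb, height 290, 17 RING1B peaks), and chromosome 11, 61323250 to 61537100 (214 kb, height 210, 11 RING1B peaks).

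The 6 tallest regions each had a peak far above their own mean signal. At chromosome 13, 74661590 to 74671710, the height was 1222 and the mean signal 26.3, so height was 46.5 times the mean, against a median of 5.77. Chromosome 7, 135327940 to 135343550, followed with a height of 803 and a mean signal of 50.8. Chromosome 9, 89795100 to 89817750, had a height of 602, and chromosome 11, 103919750 to 103942170, a height of 506 on a mean signal of 15.7. Chromosome 8, 73684790 to 73701080, and chromosome 5, 14970640 to 14992470, had heights of 454 and 451. In all, 9 regions had a height of 400 or more, and their height was a median of 17.8 times their mean signal. Choosing regions by height favours a high ratio. Even so, 1 of the 9, at chromosome 9, 121125890 to 121156640, had a ratio of 4.22. For 1 other of the 9 the mean signal itself was below the upper quartile of the set, 21.8. Among RING1B-holding regions 10 were that tall. Their tallest were chromosome 11, 88819510 to 88834230 (height 838), chromosome 1, 172993760 to 173023990 (height 764), and chromosome 8, 19913830 to 19932990 (height 717). In that order, their heights were 11.3, 4.96 and 16.0 times their mean signal.

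The region with the highest mean signal was marked over most of its width. This region, singled out after its values were seen, lay at chromosome 9, 121125890 to 121156640, with a mean signal of 105, a height of 443 and 68.1% of its width above the cutoff, and had no RING1B peak within 51.3 kb and no PCGF1 peak within 395 kb.

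Of the 6 regions farthest from RING1B, 5 had heights between 77.6 and 165, the range that held 90% of the set. Chromosome 14 held the 3 farthest, 3199230 to 3213360 (5393 kb from RING1B, height 121), 5067780 to 5079330 (3527 kb, height 115) and 43345210 to 43355350 (1551 kb, height 99.2). Chromosome 13, 72094180 to 72105220 (1361 kb, height 79.1), and chromosome 4, 146106540 to 146117740 (1275 kb, height 128), had lower and higher heights within that range. Chromosome 5, 26581150 to 26597440 (1315 kb), reached a height of 283. The 5 regions within that height range had mean signals of 10.2 to 16.7, all below the set median of 18.2, while chromosome 5 had 25.1. Height was 11.2 times the mean signal at chromosome 14, 5067780 to 5079330, 10.7 times at chromosome 4 and 11.3 times at chromosome 5. The set median of this ratio was 5.77, and the remaining regions had 4.74 to 8.04.

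Regions on either side of the limits of the set had overlapping heights. The 3 regions next above the width limit, each 10000 bp wide, had heights of 92.5 (chromosome 11, 49295070 to 49305070), 105 (chromosome 12, 80194940 to 80204940) and 114 (chromosome 18, 70060370 to 70070370). The 3 next below it, each 9990 bp wide and on chromosome 1, had heights of 72.5 (95116510 to 95126500), 103 (138560880 to 138570870) and 90.7 (163517130 to 163527120). Within 100 bp above and below the limit, median height was 98.9 in 99 regions and 92.8 in 91. At the limit on RING1B, 5 regions had a RING1B peak within 100 bp outside, the nearest at 2 bp, and a median height of 109. The 9 RING1B-holding regions with a single peak and at most 100 bp on it had a median of 115.

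The 61 wide regions that held PCGF1 but no RING1B were higher than both other sets, with a median height of 160 and a mean signal of 29.2, or 156 and 29.2 when weighted to the widths of the regions with neither. Their median distance to RING1B, 39.6 kb, was close to the 39.3 kb of regions with neither protein.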

How the data were processed

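The members and comparisons were chosen with earlier results of these data known. The submitters' processing notes name Picard, SAMtools 1.6.0 and Bowtie2, and the builds mm9 and dm3 without saying what each was for; chromosome names such as chrY_random fit mm9, and positions are read as mm9. The sources used here do not state the peak callers, controls, thresholds or pooling. In the deposited H3K27me3 list, per the file headers, height and total signal are on a signal scale without a stated normalization, beside a width above the cutoff and a -log10 p of the height. Total signal never exceeded height times width, and exceeded 10% of it in 97.9% of regions, so it was read as a sum over bases. The deposited RING1B and PCGF1 lists give a score, a fold enrichment ratio and -log10 p and q values; of these only -log10 q was used.

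Overlap meant at least 1 shared bp (checked with bedtools 2.31.1; Python 3.11.15, pandas 2.3.3, SciPy 1.17.1). Comparison medians were weighted to the members' width classes with edges at 10, 12, 15, 20, 30 and 50 kb. The procedure was run on heights simulated independently for each region on the real widths. It gave height ratios of 0.986, 0.800 and 0.597 where 1, 0.8 and 0.6 had been simulated. The real regions are not independent, which the simulation did not copy. Positions of H3K27me3 regions are as listed. The sites named were the 6 widest, 6 tallest and 6 farthest from RING1B, the 3 on each side of the width limit, the longest chain, and the 3 tallest and widest with RING1B. Other sites were named after their values were seen. No genome or gene table of mm9 was used, so no genes or sequences are given. The other 38 of the 44 libraries were not analysed here.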

Additional observations from a re-analysis of the deposited data

How the results depend on the processing

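No paired analysis was possible because the lists give no values per library. Of 51 recomputed values, 25 stayed within the counting interval of the value reported and 26 moved outside it. Only the ratios, 13 for height and 13 for mean signal, have a direction that could turn, and none did. For medians and ratios this interval treats regions as independent, which they are not, so the counts only describe the size of the moves. All ratios stayed below equality, at 0.766 to 0.90 for height and 0.776 to 0.905 for mean signal. The share of wide regions with neither protein (67.4%) was 65.5% and 60.1% when peaks within 1 and 5 kb also counted, 93.2% with only peaks of -log10 q of at least 5, 58.7% and 52.1% at widths of at least 15 and 20 kb, and 70.3% with gaps of up to 3 kb closed. The height ratio (0.843) was 0.865 with peaks within 5 kb, 0.766 with -log10 q of at least 5, 0.828 at 20 kb, 0.834 with gaps closed, 0.867 against regions without PCGF1 and 0.90 against those under 5% covered by RING1B. The ratio of mean signal (0.863) was 0.879 with peaks within 5 kb, 0.776 with -log10 q of at least 5, 0.901 against regions without PCGF1, 0.905 against those under 5% covered, and 0.80 with gaps closed, where gaps count in the width but add no signal. H3K27me3 around the regions (40.5%) was 39.3% with -log10 q of at least 5, 43.2% and 44.4% at 15 and 20 kb, 37.6% with gaps closed and 50.8% within 50 kb. Distance to RING1B (39.3 kb) was 257 kb for peaks of -log10 q of at least 5. The share with another such region within 100 kb (80.3%) was 52.8% within 20 kb and 95.3% within 500 kb, and the share on chromosome 19 (57.6%) was 50% at 15 kb. Apart from fewer or more regions or a changed distance by construction, the cause of these moves was not tested. Closing gaps of up to 1 kb changed nothing, since no gap was that short, so its values among the 25 could not have moved. The 3 kb gaps, the 5% cover limit, leaving out heights of 400 or more for mean signal, and counting positions from 1 were chosen after seeing the data. Depth, which is unknown, sets how weak a RING1B or PCGF1 site can be and still be listed.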
